A study of Drosophila melanogaster with 2 samples.

Results

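Small nucleolar RNA (snoRNA) genes, and the genes that carry them, were examined for binding of the Drosophila melanogaster protein CG14965. The members were the genes of the Ensembl BDGP6 annotation whose symbol starts with "snoRNA:". There were 257 of them among 18164 annotated genes on the chromosome arms, transposable elements left out. Of these, 246 lay wholly inside the body of another gene, here called the host, and 11 lay outside other genes. For 236 the host was on the same strand, and for 10 the only containing gene was on the opposite strand. The members had 100 host genes, 85 of them on the same strand. A region counted for a gene when its summit lay within 500 bp of an annotated transcription start site (TSS), and each region was counted once even where it served several snoRNA genes.

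Each value comes from ChIP-seq with an antibody to green fluorescent protein (GFP). The embryos were of 1 transgenic fly line that stably expresses CG14965 with eGFP at its C terminus, they were whole, of both sexes and 0 to 24 h old, and no tissue was separated. There were 2 samples of this 1 group, biological replicates 3 and 4 in the labels, so no conditions could be compared, and the control library behind the peak calls was not analysed here. The authors deposited a list of 30000 candidate regions for each replicate and for the pooled replicates, plus 1302 optimal peaks, those that passed their reproducibility threshold. The optimal peaks are the pooled regions of highest signal value. That value is a score with no stated scale, so it is compared only within a list. Read numbers are not in these files, so the depth is unknown.

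snoRNAs work in the nucleolus as guides for the chemical modification of ribosomal RNA. C/D box snoRNAs, named for a C box near the 5′ end and a D box near the 3′ end, direct 2′-O-methylation. H/ACA snoRNAs, which end shortly after an ACA triplet, direct pseudouridylation. Most fly snoRNAs have no promoter of their own: they are cut out of introns spliced from a host transcript, so they depend on transcription of the host. Many hosts encode ribosomal proteins, and others, the Uhg genes, make a spliced transcript with no known protein. In flies, ribosomal protein (RP) genes start transcription at a polypyrimidine stretch in place of the usual initiator. U3, needed for the first cuts of the ribosomal RNA precursor, is transcribed from its own promoter.

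The promoters of 4 hosts that had a peak within 500 bp of both the host start and a snoRNA start are printed first, followed by those of 4 more ribosomal protein hosts with strong peaks. Of these, RpL23A, RpL13A and RpL22 were picked because they share a word described at the end, and RpL30, which ranks among them by signal, lacks it. Each runs from 140 bases before the annotated TSS to 20 bases from it on, 5′ to 3′ on the gene's strand, from the RefSeq Release 6 sequence. Positions (dm6) are RpL28 at chr3L:3222941-3223100 on the minus strand, RpS12 at chr3L:13023212-13023371 on the plus strand, RpL3 at chr3R:11221754-11221913 on the plus strand, RpL17 at chrX:6744219-6744378 on the minus strand, RpL23A at chr3L:1668635-1668794 on the minus strand, RpL30 at chr2L:19009287-19009446 on the minus strand, RpL13A at chr3R:5624334-5624493 on the plus strand and RpL22 at chrX:765111-765270 on the minus strand. Capitals mark a CTTT that begins within 5 bases of the TSS, and the word TATCGATA, the DNA replication-related element (DRE), a promoter element of housekeeping genes in flies.
RpL28 promoter: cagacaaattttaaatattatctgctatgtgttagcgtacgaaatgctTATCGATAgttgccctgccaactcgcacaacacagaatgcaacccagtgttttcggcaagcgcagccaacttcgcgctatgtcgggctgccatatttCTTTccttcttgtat
RpS12 promoter: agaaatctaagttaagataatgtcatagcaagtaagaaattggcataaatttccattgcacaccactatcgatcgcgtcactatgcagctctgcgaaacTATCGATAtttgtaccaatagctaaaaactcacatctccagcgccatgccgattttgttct
RpL3 promoter: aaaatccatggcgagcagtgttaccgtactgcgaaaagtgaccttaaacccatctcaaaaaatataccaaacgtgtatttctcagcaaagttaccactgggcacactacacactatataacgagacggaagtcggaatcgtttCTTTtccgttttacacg
RpL17 promoter: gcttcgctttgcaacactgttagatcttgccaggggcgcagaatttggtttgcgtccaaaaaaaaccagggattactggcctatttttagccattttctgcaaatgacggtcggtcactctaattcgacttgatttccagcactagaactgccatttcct
RpL23A promoter: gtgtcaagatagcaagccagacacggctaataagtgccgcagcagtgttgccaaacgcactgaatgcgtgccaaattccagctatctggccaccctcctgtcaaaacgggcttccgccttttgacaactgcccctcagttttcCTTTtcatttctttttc
RpL30 promoter: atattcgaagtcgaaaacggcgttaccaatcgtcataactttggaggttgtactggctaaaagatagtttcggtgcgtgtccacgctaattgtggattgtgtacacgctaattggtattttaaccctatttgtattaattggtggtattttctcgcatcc
RpL13A promoter: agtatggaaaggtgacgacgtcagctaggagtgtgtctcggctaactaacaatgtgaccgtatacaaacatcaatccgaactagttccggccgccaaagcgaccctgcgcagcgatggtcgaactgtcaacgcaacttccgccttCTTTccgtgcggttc
RpL22 promoter: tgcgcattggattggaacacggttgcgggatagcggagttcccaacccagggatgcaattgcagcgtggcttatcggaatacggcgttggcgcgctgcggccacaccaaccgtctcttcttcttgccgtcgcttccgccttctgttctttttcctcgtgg

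The snoRNA genes that start within 500 bp of 5 of the peak summits are printed next, since they show the class each member belongs to. Positions (dm6) are Or-CD11a at chr3L:3222475-3222541 on the minus strand, Me28S-A774b at chr3L:13023580-13023652 on the plus strand, Me18S-C1096 at chr3R:11222405-11222489 on the plus strand, Psi18S-1275 at chr3R:9778398-9778537 on the plus strand and Psi28S-1232 at chrX:6743675-6743815 on the minus strand. Capitals mark the C box TGATGA in the first 25 bases and the last CTGA in the last 25 bases of the C/D members, and the last ACA in the last 12 bases of the H/ACA members.
snoRNA:Or-CD11a: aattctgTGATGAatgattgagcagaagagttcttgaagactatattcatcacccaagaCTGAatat
snoRNA:Me28S-A774b: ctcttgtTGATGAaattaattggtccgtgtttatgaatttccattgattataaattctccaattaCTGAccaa
snoRNA:Me18S-C1096: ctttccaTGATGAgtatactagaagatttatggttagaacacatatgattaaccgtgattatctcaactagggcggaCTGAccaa
snoRNA:Psi18S-1275: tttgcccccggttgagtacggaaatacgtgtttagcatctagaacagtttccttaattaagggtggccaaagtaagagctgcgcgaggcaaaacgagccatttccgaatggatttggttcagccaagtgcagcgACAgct
snoRNA:Psi28S-1232: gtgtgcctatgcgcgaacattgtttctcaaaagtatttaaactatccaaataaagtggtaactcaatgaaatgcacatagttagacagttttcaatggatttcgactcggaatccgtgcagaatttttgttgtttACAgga
The boxes follow the names over the whole set. Of the 93 genes with a C/D name, 65 (69.9%) held TGATGA in the first 25 bases and 89 (95.7%) held CTGA in the last 25. Of the 115 genes with an H/ACA name, 106 (92.2%) ended 3 bases after an ACA, and 0 held TGATGA in the first 25 bases. All 5 printed genes lie inside ribosomal protein genes, and the printed motifs are letter matches, not mapped sites.

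Few snoRNA genes had a peak near their own start. Optimal peaks lay within 500 bp of the TSS of 9 of 257 snoRNA genes (3.50%, 95% Wilson interval 1.85 to 6.52%, which covers counting error only). The same count over all genes was 760 of 18164 (4.18%), and over protein-coding genes 684 of 13945 (4.90%). The members' share was therefore near the background. Candidate regions gave the same picture, at 98 snoRNA genes (38.1%) against 39.0% of all genes. By name, 5 of 115 H/ACA genes and 4 of 93 C/D genes had an optimal peak, and 0 of 46 genes with other names had one (a count of 0 allows up to 6.52%). The 3 U3 genes had none either, and candidate regions lay at 2 of them.

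Among other small RNA classes, 0 of 17 scaRNA genes had an optimal peak (limit 17.6%). These RNAs are the Cajal body relatives of snoRNAs, which guide modification of spliceosomal RNAs. The count for small nuclear RNA genes was 0 of 32 (limit 9.38%), and for tRNA genes 5 of 290 (1.72%, 0.739 to 3.97%). The intervals of these classes and of the snoRNA genes overlap.

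All 9 snoRNA genes with an optimal peak lay inside a host. Of the 246 hosted genes this is 3.66% (1.94 to 6.81%). The 11 snoRNA genes outside other genes had 0, which allows a share of up to 27.3%. Candidate regions lay at 8 of these 11 (72.7%, 43.4 to 90.3%), against 39.0% of all genes, and their signal values were low. Examples are 35.43 at Psi18S-301, the highest, and 27.97 at U3:54Aa, and the median of 27.45 is close to the 26.16 of all 30000 pooled regions. Of the 8 genes, 3 are neighbours that share the same region (pooled value 26.94). The interval treats them as separate and is therefore too narrow, and no excess over all genes is read from it.

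The 9 genes shared 8 peaks, because the H/ACA genes Psi28S-2949 and Or-aca5 lie side by side in Uhg4. All 8 regions are 436 bp wide, the most frequent width in the list. Summits of the overlapping replicate regions were shifted from the pooled summit by up to -79 bp in replicate 3 (Or-ACA6) and -172 bp in replicate 4 (RpL3). Pooled signal values of the 8 regions ran between 71.87 and 144.7 with a median of 83.89, against 69.76 to 8276 and a median of 100.9 over the 1302 optimal peaks. Their ranks ran between 334 and 1226 of 1302, with a median of 924. For 6 of the 8, the TSS nearest to the summit was that of the host, between 14 and 71 bp away. For the other 2 it was that of the snoRNA gene, more than 400 bp away, and 0 of the 8 summits fell inside a snoRNA gene body.

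Or-CD11a, an orphan C/D snoRNA with no known target, lies in RpL28, which encodes a protein of the large ribosomal subunit. Its peak (chr3L:3222813-3223248) had signal values of 57.22 in replicate 3 (rank 757 of 30000), 86.74 in replicate 4 (rank 191) and 144.7 in the pooled list (rank 334). It was thus among the 1302 highest regions of each replicate. The summit lay 71 bp upstream of the RpL28 TSS and 490 bp upstream of the snoRNA start. The TSS of eIF1, a translation initiation factor gene, was 310 bp from the summit. The RpL28 promoter printed above holds a DRE that starts 92 bases before the TSS, and this was the 1 snoRNA peak of 8 (12.5%) with a DRE within 50 bp of its summit, against 1.31% of all optimal peaks.

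The peak at Uhg4, a noncoding host of 7 snoRNAs, had values of 64.23 in replicate 3 (rank 604), 72.9 in replicate 4 (rank 257) and 144.5 in the pooled list (rank 335). Both replicates placed it high. The summit was 55 bp upstream of the Uhg4 TSS and 154 bp upstream of the closer snoRNA start. No other gene started within 500 bp of it.

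Me28S-A774b, a C/D snoRNA named for a methylated position of 28S rRNA, lies in RpS12, a gene for a small-subunit protein. The peak there (chr3L:13023148-13023583) had values of 45.87 in replicate 3 (rank 1134), 47.52 in replicate 4 (rank 571) and 95.37 in the pooled list. The replicates placed it in the same upper range, and the summit lay 14 bp inside the RpS12 transcript, in its 5′ UTR. The RpS12 promoter has its DRE 41 bases before the TSS, 55 bp from the summit and so just outside the window searched. Me18S-C1096 lies in RpL3, the gene of another large-subunit protein. Its peak (chr3R:11221708-11222143) had values of 43.38 in replicate 3 (rank 1251), 36.55 in replicate 4 (rank 981) and 83.37 in the pooled list. The pooled summit lay 32 bp inside the RpL3 transcript, and the TSS of CG6693 was 287 bp from it. Summits of the replicate 3 and replicate 4 regions were at -38 and -172 bp from the pooled summit. Both lay upstream of the RpL3 TSS and farther than 500 bp from the snoRNA start.

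Psi18S-1275, an H/ACA snoRNA named for a pseudouridine of 18S rRNA, lies in RpS29. Its peak (chr3R:9777778-9778213) rested on 1 replicate: the value was 61.44 in replicate 3 (rank 660) and 79.51 in the pooled list, and no region of the replicate 4 list overlapped it. Psi28S-1232, an H/ACA snoRNA in RpL17, had the weakest of the 8 peaks (chrX:6744070-6744505). Its values were 36.74 in replicate 3 (rank 1726), 39.14 in replicate 4 (rank 821) and 71.87 in the pooled list (rank 1226). The summits of these peaks lay 46 bp upstream of the RpS29 TSS and 50 bp upstream of the RpL17 TSS, and a tRNA gene for phenylalanine started 255 bp from the summit at RpL17.

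The other 2 peaks were not at a host promoter. Or-ACA6 lies in an intron of egr, the gene of the fly tumour necrosis factor, on the opposite strand. Its peak (chr2R:10081550-10081985) had values of 29.67 in replicate 3 (rank 2704), 54.77 in replicate 4 (rank 441) and 84.4 in the pooled list, and the summit was 443 bp upstream of the snoRNA start and 3402 bp from the egr TSS. Or-CD4 lies in Uhg5. Its peak (chr2R:14624488-14624923) had values of 50.83 in replicate 3 (rank 931), 24.42 in replicate 4 (rank 3555) and 74.28 in the pooled list, with the summit 453 bp downstream of the snoRNA start, between genes, and 3105 bp from the Uhg5 TSS. Each of these was in the upper 1302 of 1 replicate only. Over the 8 peaks, 7 overlapped a region of both replicate lists, 6 were among the 1302 highest of replicate 3, 6 among those of replicate 4, and 4 among those of both. These counts go by overlap of regions. The RpL3 peak is among the 4, though neither of its replicate summits lay within 500 bp of the snoRNA start.

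**Figure D1:**
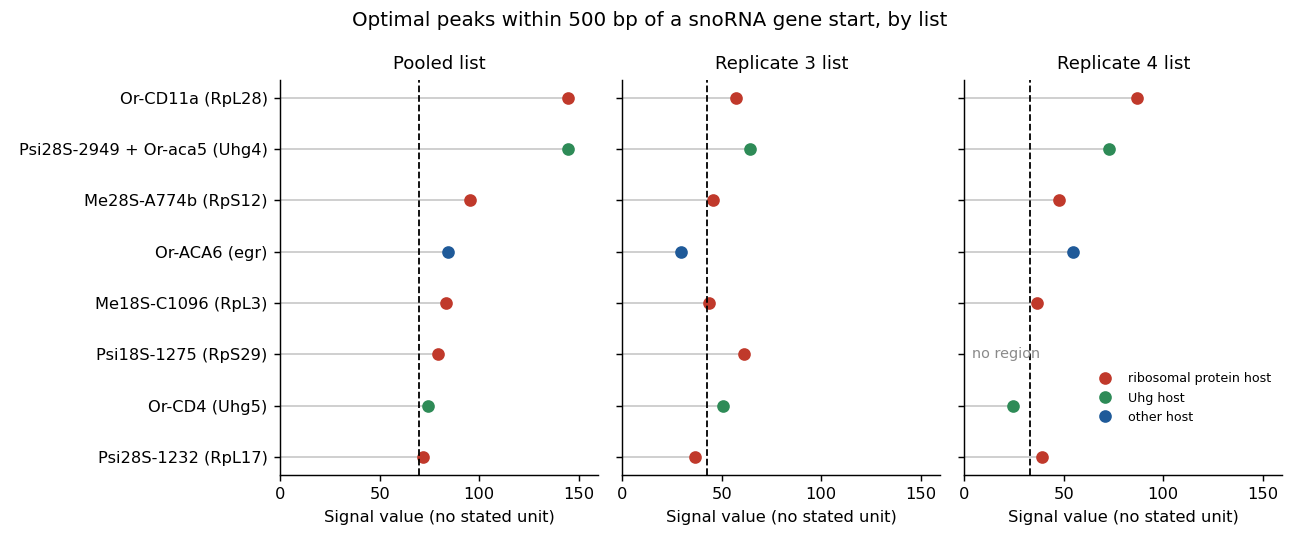
Signal value (x axis, no stated unit) of the 8 optimal peaks within 500 bp of a snoRNA start in the pooled list, the replicate 3 list and the replicate 4 list, 1 row per peak with its host in brackets and colours for the host class. Dashed lines mark the lowest optimal peak (69.76) and the value at rank 1302 of replicate 3 (42.57) and replicate 4 (32.84). The peaks in RpL28 and Uhg4 lead the pooled list, the RpS29 peak has no replicate 4 region, and the peaks in egr, Uhg5 and RpL17 each pass the line of 1 replicate.

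Below the optimal threshold lay 69 further candidate regions at snoRNA starts, with pooled values of 19.59 to 61.38 and a median of 27.97, against a median of 26.16 over all pooled regions. The highest was at Or-aca2 in RpS6, a gene for a small-subunit protein, 3 bp from the RpS6 TSS. It had 22.05 in replicate 3 (rank 5536), 40.63 in replicate 4 (rank 761) and 61.38 in the pooled list (rank 1622), so it was high in 1 replicate. Other strong regions were at Psi28S-2626 and Psi18S-1377a in RpS7 (pooled value 51.29) and at Or-ACA9 in the metalloprotease gene AdamTS-A (50.86). Psi18S-1086 in the splicing factor gene Sf3b3 had 47.05, and Psi28S-291 with Me28S-G2017 in RpL3 had 46.99. Lower values were those of Dek-a in the chromatin protein gene Dek (42.86), Psi28S-2566 in CG3902 (42.32), Me18S-C1831 in RpL27A (40.52) and a cluster of 6 snoRNA genes in RpS7 (39.9). The region at Me18S-C1831 had no overlap in replicate 4. Of the 69, 35 overlapped a region of both replicate lists, and 10 had a summit inside a snoRNA gene body.

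Regions at snoRNA starts were sorted by where the host starts. Of the 77 regions, 25 had their summit within 500 bp of a host TSS. Another 44 belonged to hosted snoRNA genes but had the summit farther from the host TSS, and 8 belonged to snoRNA genes with no host. Optimal peaks made up 6 of the 25 (24.0%, 11.5 to 43.4%), 2 of the 44 (4.55%, 1.26 to 15.1%) and 0 of the 8 (limit 37.5%). Over the whole pooled list 1302 of 30000 regions were optimal (4.34%). That share was 7.96% for regions within 500 bp of a TSS other than a snoRNA's and 3.17% for regions farther away. Regions away from the host promoter were thus near the background, while the interval of those at the host promoter lay above it, with no test made. The intervals of regions at and away from the host promoter overlap, so these groups were not separated at these numbers. Median pooled values were 33.82 at host promoters, 27.41 away from them and 27.45 with no host. Within the host promoters, 5 of 14 regions at ribosomal protein hosts (35.7%) and 1 of 11 at other hosts (9.09%) were optimal.

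**Figure D2:**
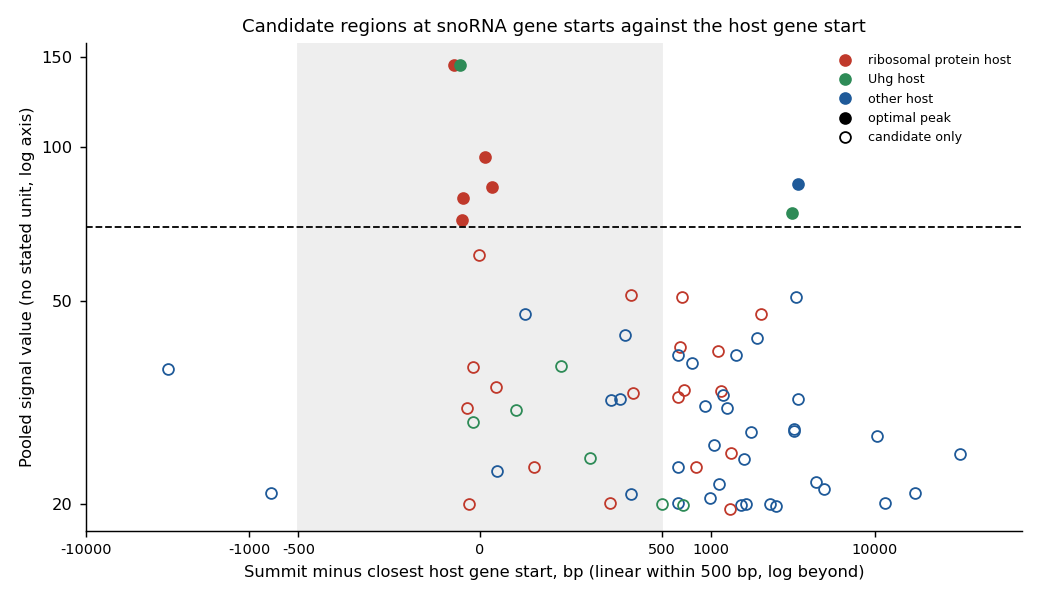
Pooled signal value (y axis, log, no stated unit) of the 69 candidate regions at hosted snoRNA genes against the distance of the summit from the closest host TSS (x axis, bp, linear within 500 bp and log beyond). Filled points are the 8 optimal peaks, open points candidates only, colours give the host class, the grey band marks 500 bp on either side and the dashed line the lowest optimal peak (69.76). Of the filled points, 6 stand in the grey band within 71 bp of the host start and 2 stand at 3105 and 3402 bp.

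How far a snoRNA lay from its host's start went with whether a peak was counted for it. This distance is measured for the 236 genes with a same-strand host, and its median was 1433 bp (0 to 50634 bp). It runs to the closest upstream TSS of any same-strand host, which need not be the TSS with a peak. In RpL28, Or-CD11b and Or-CD11c are at 173 and 179 bp by this measure, but farther than 500 bp from the RpL28 TSS at the peak. Of 33 snoRNA genes within 500 bp of the host TSS, 6 had an optimal peak (18.2%, 8.61 to 34.4%) and 25 a candidate region (75.8%). At 501 to 1000 bp the counts were 1 and 21 of 48 (2.08% and 43.8%). At 1001 to 2000 bp they were 0 (limit 4.29%) and 23 of 70 (32.9%). At 2001 to 5000 bp they were 1 and 12 of 58 (1.72% and 20.7%), and beyond 5000 bp 0 (limit 11.1%) and 6 of 27 (22.2%). A snoRNA start within 500 bp of a host TSS shares its window with the promoter at that TSS, so the first of these classes does not separate them.

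**Figure D3:**
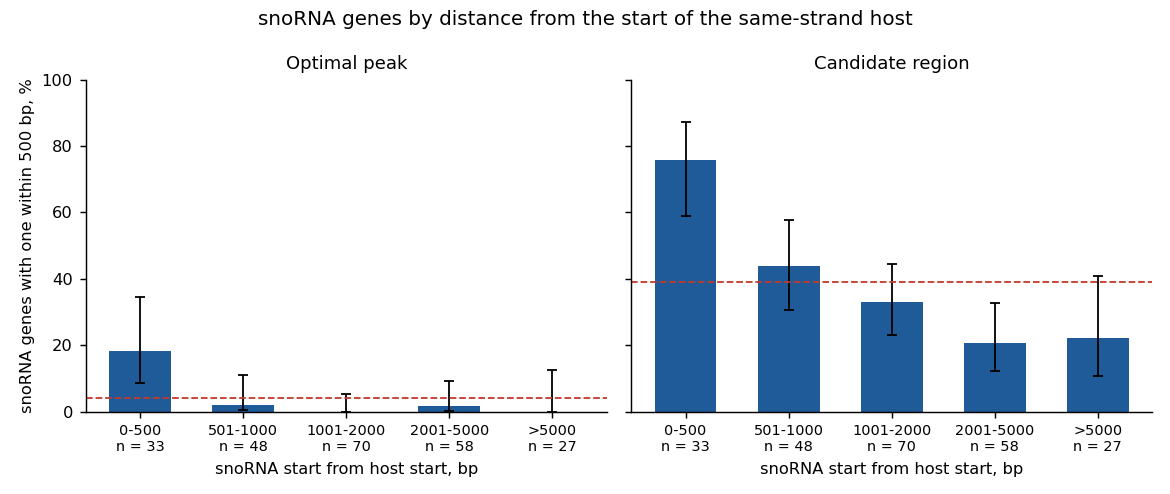
Share of snoRNA genes (y axis, %) with an optimal peak (left) or a candidate region (right) within 500 bp of their TSS, by distance from the closest upstream TSS of a same-strand host (x axis, bp), with the number of genes under each bar. Error bars are 95% Wilson intervals and the dashed line is the share of all genes, 4.18% on the left and 39.0% on the right. The closest class stands above the line in both panels, at 18.2% and 75.8%.

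Counted at the host start in place of the snoRNA start, peaks were more frequent. Optimal peaks lay within 500 bp of a TSS of 21 of the 100 hosts (21.0%, 14.2 to 30%), against 4.18% of all genes and 4.90% of protein-coding genes. Same-strand hosts gave 20 of 85 (23.5%), and 75 of the 100 had a candidate region (75.0%, 65.7 to 82.5%), against 39.0% of all genes and 42.5% of protein-coding genes. These were 21 separate peaks. Within 500 bp of a snoRNA start were 6 of them, and 15 were farther away. The hosts with a peak carried 82 of the 246 hosted snoRNA genes, and for 75 of these 82 the peak was not within 500 bp of the snoRNA's own TSS.

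The peaks at ribosomal protein hosts and at Uhg4 sat close to the host start, and those at other protein-coding hosts lay farther away. The median distance of the 21 summits from the host TSS was 64 bp (2 to 403 bp), and 15 (71.4%) lay within 100 bp. Over the 587 optimal peaks within 500 bp of any TSS, the median distance to the nearest TSS was 147 bp and 204 (34.8%) lay within 100 bp. Signal values of the 21 had a median of 132.2 in the pooled list. In replicate 3 they were 36.74 at the lowest, 70.56 at the median and 137.1 at the highest. In replicate 4, where 20 of the 21 had a region, they were 28.69, 57.39 and 105.6. Among the 1302 highest regions of both replicates were 16 of the 21, and 4 of the 8 at snoRNA starts, with 6 peaks in both sets.

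Ribosomal protein genes made up most of the hosts with a peak. The class holds 93 genes, taken by a symbol that starts with RpL, RpS or RpLP and a number, plus sta. No further sorting was made, so the hosts and the other genes of the class are not matched. Of the 29 ribosomal protein hosts, 15 had an optimal peak (51.7%, 34.4 to 68.6%). Of the 64 ribosomal protein genes that host no snoRNA, 20 had one (31.2%, 21.2 to 43.4%). The intervals overlap, so hosts and other ribosomal protein genes were not separated at these numbers. Among protein-coding hosts outside this class, 5 of 58 had a peak (8.62%, 3.74 to 18.6%), against 644 of 13794 other protein-coding genes (4.67%, 4.33 to 5.03%). The summits at all 5 of these hosts lay farther than 250 bp from the host TSS, so a narrower window would not count them. The strongest region at each gene had a median value of 79.51 over the 27 ribosomal protein hosts with any candidate and 64.2 over the 51 such genes without a snoRNA.

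**Figure D4:**
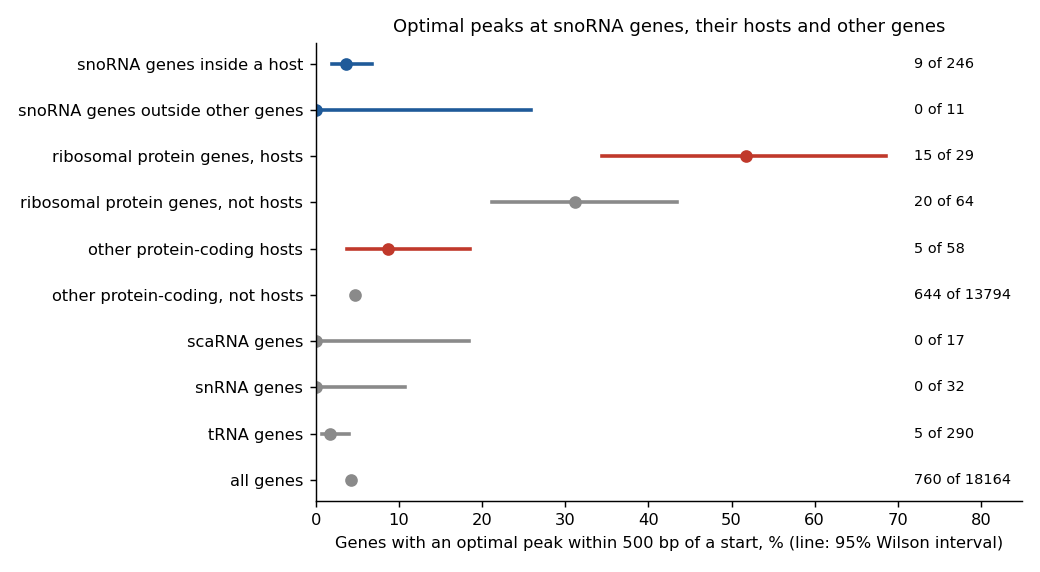
Share of genes (x axis, %) with an optimal peak within 500 bp of a TSS for snoRNA genes, host genes and other classes, with the counts at the right and 95% Wilson intervals as lines. Ribosomal protein hosts stand highest at 51.7%, with an interval that overlaps that of the other ribosomal protein genes at 31.2%, and hosted snoRNA genes at 3.66% stand beside all genes at 4.18%.

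The strongest host peak was at RpL23A (chr3L:1668506-1668941), a large-subunit gene with 4 snoRNAs. Its values were 129.6 in replicate 3 (rank 171), 105.6 in replicate 4 (rank 151) and 234.2 in the pooled list (rank 156), with the summit 70 bp upstream of the TSS and 1477 bp from the closest snoRNA start. The replicates ranked it alike. All 4 snoRNAs of RpL23A also lie inside Uhg7, a Uhg gene within RpL23A, which had only a candidate region at its TSS (pooled value 28.92). At RpL30 (chr2L:19009086-19009521) the values were 119.8, 82.12 and 207.2 in the same lists, with the summit 2 bp from the TSS, and at RpL13A (chr3R:5624218-5624653) they were 97.04, 85.81 and 189.7. RpL14 followed with 178.1 in the pooled list, but the TSS of Nelf-E, a subunit of the negative elongation factor, was as close to the summit (63 bp) as that of RpL14 (64 bp). RpL22 (171.6), RpL11 (165.3), RpS20 (132.2), RpS4 (128.6) and RpS5a (108.6), a host of 14 snoRNAs, completed the ribosomal protein genes among the upper 15 hosts beside RpL28.

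Outside the ribosomal protein class, Stt3A, which encodes the catalytic subunit of oligosaccharyltransferase, had 225.3 in the pooled list. Its summit lay 403 bp upstream of the Stt3A TSS and 206 bp from that of bves, the nearest gene. Msp300, the gene of a large nuclear envelope protein of muscle, had 151.2, and its peak was 94226 bp from the closest snoRNA start. The transcription factor gene lola had 119.1. The chromatin remodeller gene dom, a host of 15 snoRNAs, had 105.8 in the pooled list, 61.51 in replicate 3 and 46.56 in replicate 4, with the summit 343 bp downstream of a TSS. The summits of these 4 lay between 305 and 403 bp from the start, farther than at the 15 ribosomal protein hosts, where the farthest was 138 bp.

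Uhg4 was the only one of 7 noncoding Uhg hosts with an optimal peak (14.3%, 2.57 to 51.3%). In the Uhg list, candidate regions with pooled values of 37.22, 30.56, 28.92 and 27.51 lay at Uhg5, Uhg2, Uhg7 and Uhg8, and none lay at Uhg1 or Uhg3. The 7 Uhg genes carry 48 snoRNA genes and the ribosomal protein hosts 76, and the 4 that lie in both Uhg7 and RpL23A are in both numbers. Hosts that encode snoRNP or ribosome biogenesis proteins had 0 of 5, splicing hosts 0 of 5, and hosts for translation and mRNA binding proteins 0 of 3, numbers too small to bound a share usefully.

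**Figure D5:**
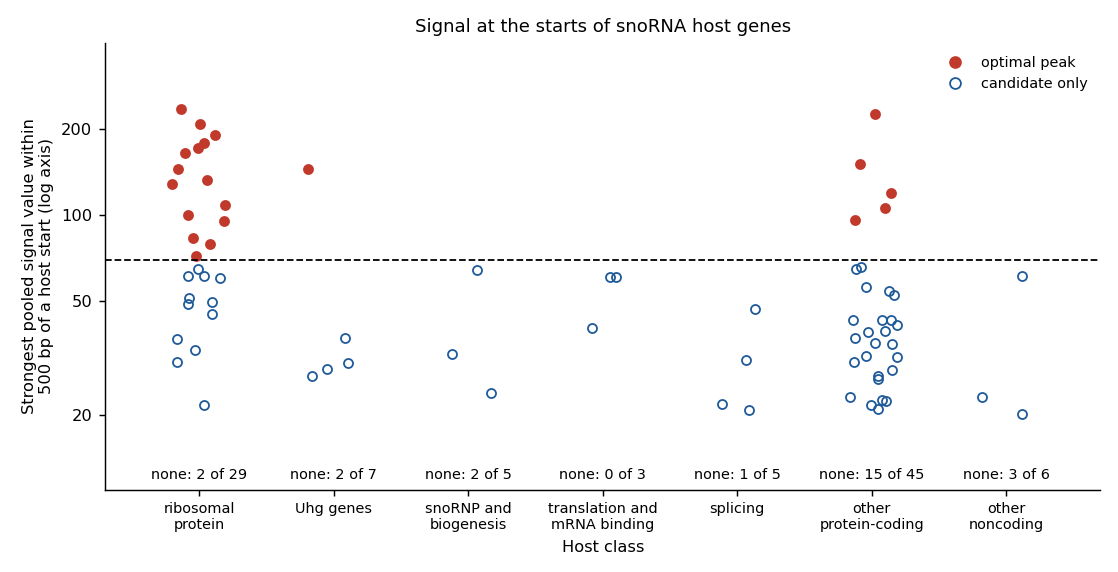
Strongest pooled signal value within 500 bp of a host TSS (y axis, log, no stated unit) for the host genes by class (x axis), with filled points for optimal peaks, open points for candidates only and, at the foot, the number of hosts without any region. The dashed line is the lowest optimal peak (69.76). Of the 21 filled points, 15 are ribosomal protein genes and 1 is Uhg4.

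The proteins that work with snoRNAs were looked at as a list of 16 names, of which 13 matched the annotation. None of the 13 had an optimal peak at a TSS (a count of 0 allows up to 23.1%), against 4.90% of protein-coding genes, so at this number the absence does not set the list apart. Candidate regions lay at 11 of the 13 (84.6%), against 42.5% of protein-coding genes. Not all of these regions are closest to the listed gene. At hoip, Nop60B and rept the TSS nearest to the summit was that of another gene, and at Snup it was tied with that of CG42304. Fib, the methyltransferase of C/D particles, came closest to the threshold. It had 43.89 in replicate 3 (rank 1220), 22.14 in replicate 4 (rank 5205) and 64.38 in the pooled list (rank 1502), and the TSS nearest to its summit was that of CG3085. NHP2, a core H/ACA protein, had 58.32 in the pooled list, and pont, whose yeast and human relatives are ATPases of particle assembly, had 42.64.

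The start sites of the hosts with a peak were read for the polypyrimidine start of ribosomal protein genes. A CTTT on the gene's strand, beginning within 5 bases of the TSS nearest the peak, was found at 9 of the 21 (42.9%), 8 of 15 ribosomal protein hosts and 1 of 6 others, against 6.41% of the 23328 annotated TSSs. This motif was chosen after the sequences had been seen. Counting any TSS of a gene, 19 of 29 ribosomal protein hosts (65.5%) and 39 of 64 other ribosomal protein genes (60.9%) held it. In the printed promoters, CTTT begins 3 bases after the TSS in RpL3 and RpL23A and 5 bases after it in RpL28 and RpL13A.

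Other motifs were searched on both strands in the 250 bases before to 50 bases from the TSS on. TATCGATA (DRE) was in 3 of 21 promoters of hosts with a peak (14.3%) and 6.85% of all 23328 promoters. The TATA box word TATAAA was in 4 (19.0%, against 41.5%) and the E-box CACGTG in 1 (4.76%, against 4.00%). The GAGA factor word GAGAG was in 7 (33.3%, against 32.5%). The words AGATGGCG and AGAGGGCG, taken from the core of the CTCF site, were in none, against 0.947% and 0.519% of all promoters. Within 50 bp of the 8 summits at snoRNA starts, the 5 words other than the DRE were absent. The word AGATGGCG was within 50 bp of the summit of 0 of the 21 host peaks and of 4.07% of all optimal peaks. With shares this low, a count of 0 among 21 does not set the host peaks apart. Mean GC content in that window was 43.2% for the snoRNA peaks and 44.6% for the host peaks, against 38.1% over the optimal peaks and 45.2% over the pooled regions. A match or its lack describes these letters in these windows and nothing about a factor.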

How the data were processed

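Optimal and candidate lists in narrowPeak form were used as the authors deposited them on dm6. Column 7 is a signal value, deposited by the authors as a score of no stated scale. The deposited column 10 is the distance between region start and summit, so columns 2 and 10 were added to place each summit. Per the labels' text files, regions were called against a control library. For the aligner and peak caller, names were not given in the sources used here. The lists on the older build were not used. Genes and TSSs came from Ensembl BDGP6 release 115 and bases from the RefSeq Release 6 sequence, in which 99.83% of 30593 annotated start codons read ATG. A host contains the whole snoRNA gene. snoRNA classes were read from names. Replicate values are those of overlapping regions (at least 1 bp). The limit for a share of 0 is 3 counts of the total. Counting was checked on planted regions. Python 3.11.15, pandas 2.3.3 and statsmodels 0.14.6 were used. The members and lists were chosen with earlier results of these data known. Named were all snoRNA genes with an optimal peak and their hosts, the 10 strongest candidate regions below the threshold (1 of them is not reported here), up to 15 hosts by signal value and 3 snoRNP genes. No test was run, because there is 1 group of 2 samples, and whether these are separate cultures beyond their separate biosample records is not stated. Alternatives were windows of 250 and 1000 bp, region overlap in place of summits, each replicate alone, a stricter list of 651 peaks, nearest TSS only, and same-strand hosts only.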

Additional observations from a re-analysis of the deposited data

How the results depend on the processing

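The counts at snoRNA starts depended on the window, those at host starts less so. Hosts with a peak numbered 16 with 250 bp and 23 with 1000 bp, against 21. The hosts lost with 250 bp were all those protein-coding hosts with a peak that lie outside the ribosomal protein class. With 250 bp, 2 snoRNA genes (2 hosted) at 2 optimal peaks were counted against 9 and 8, and 47 genes at 42 candidate regions against 98 and 77. With 1000 bp there were 28 genes (28 hosted) at 16 peaks, and 153 genes at 124 candidate regions, since a wider window takes in more summits by construction. Counting region overlap with the window gave 16 genes (16 hosted). The upper 651 peaks held 3 genes (3 hosted) at 2 peaks, and assigning each peak to its nearest TSS gave 2 genes (2 hosted) at 2 peaks. With same-strand hosts only, 1 snoRNA gene without a host had a peak (Or-ACA6) against 0. Leaving out either replicate gave 5 to 6 peaks and 6 genes, with replicate 4 left out the lower number, and 20 to 21 hosts. Across all alternatives the hosts with a peak numbered 15 to 23. The share over all genes was counted at 500 bp only (4.18%). Counts under the other settings therefore have no background beside them, and no excess or lack is read from them. Of the 8 peaks, 4 were in the upper 1302 of both replicates and 7 met any region of both lists. No paired analysis was possible because there is 1 group. Unknown depth limits what a missing region means.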

Other observations

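Promoters of 3 ribosomal protein hosts with strong peaks, RpL23A, RpL13A and RpL22, share the word TTCCGCCTT near the start, as the printed sequences show. The word was picked after the promoters had been read, so its counts are descriptions. Searched on both strands from 250 bases before to 50 bases from the TSS on, it was in 3 of 29 ribosomal protein hosts (10.3%), in 0 of the 64 ribosomal protein genes that host no snoRNA (limit 4.69%) and in 61 of 23328 promoters overall (0.261%). It was within 50 bp of the summit at 2 of the 21 host peaks and at 3 of all 1302 optimal peaks.

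RpL3 carried more than 1 region at its snoRNA genes. Beside the optimal peak at its promoter, a candidate region in its 3′ UTR at Psi28S-291 and Me28S-G2017 had 46.99 in the pooled list, 2016 bp from the RpL3 TSS. A further one at Me18S-C1096 had 20.08, 358 bp from the TSS, and it overlapped the optimal peak, so it is not a separate site. At RpL14, whose promoter peak had 178.1, the candidate region at the C/D snoRNA U49:66Da had 23.66, 147 bp inside the gene. That region overlapped the promoter peak too, and the replicate regions it met were those of the promoter peak.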
